A study of Capra hircus with 10 samples.

Results

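The miR-29 family was examined in small RNA libraries from the mammary gland of lactating Alpine goats (Capra hircus). Its members were the miRNA whose name, without the species prefix, was miR-29a, miR-29b or miR-29c with either arm. This rule found 6 of the 1804 miRNA listed, namely the 3p and 5p miRNA of 3 precursors, mir-29a, mir-29b and mir-29c. All 6 had a highest normalized read count above 28, the limit above which miRNA were tested, and 490 miRNA in all passed it. Normalized read counts are counts divided by a size factor of the library, taken from the median of ratios.

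The libraries came from 4 goats fed ad libitum (Control: L01, L04, L06 and L10) and 6 goats deprived of food for 48 h (FD: L02, L03, L05, L07, L08 and L09). All the goats were at 48 ± 2 days post-partum and had received the same hay-based diet for 2 weeks beforehand. The sample labels give this diet as 35 parts forage and 65 parts concentrate for every goat. Each library was made from 1 goat, so the spread between libraries includes the spread between animals. The tissue was taken whole, so fewer cells of a type and less RNA per cell cannot be told apart.

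A miRNA is cut from a hairpin precursor with a 5p and a 3p arm, and mostly recognises its target mRNA through its seed, bases 2 to 8. In mammals the 3p arm is the main product of the miR-29 precursors. The miR-29 family is best known for repressing mRNA that encode collagens and other extracellular matrix proteins, and those of the DNA methyltransferases DNMT3A and DNMT3B. In the mammary gland, extracellular matrix surrounds the secretory epithelium, and DNA methylation takes part in the control of milk protein genes.

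The mature sequences show what the 3p miRNA share and where the 5p miRNA differ. They are given as deposited, 5′ to 3′, with the seed in capitals.
miR-29a-3p: tAGCACCAtctgaaatcggtt
miR-29b-3p: tAGCACCAtttgaaatcagt
miR-29c-3p: tAGCACCAtttgaaattggtt
miR-29a-5p: aCTGATTTcttttggtgttca
miR-29b-5p: cTGGTTTCacatggtggcttaga
miR-29c-5p: tGACCGATttctcctggtgttca

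The 3p miRNA had the same seed, and 0 of the other miRNA listed carried it. Counted from 1 at the 5′ end, miR-29b-3p differed from miR-29a-3p by C10T and G18A, and miR-29c-3p differed from miR-29a-3p by C10T and C17T. From miR-29b-3p to miR-29c-3p the differences were C17T and A18G. The reads kept were 17 to 28 nt long, and over the first 17 bases miR-29b-3p differed from each of the other two at 1 base, so the counts of the 3p miRNA rest on few bases. The mismatches allowed in counting are not given in the sources used here. The 5p miRNA had 3 different seeds.

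Total counts ranged from 4495512 to 7506955 in Control and from 5674119 to 9842009 in FD libraries, and the FD mean was 1.29 times the Control mean (two-sided exact permutation test over 210 splits, p = 0.138). The median Spearman correlation of a library with the others was between 0.942, in L01, and 0.972. Summed normalized counts of 6 epithelial miRNA, the miR-200 group and miR-205, were 220473 to 244168 in Control and 172861 to 242470 in FD libraries, the lowest being L08. Of these, miR-205-5p had a log2 fold change of 0.41 and the other 5 ranged from -0.34 to -0.11. For stromal miRNA (5 of 6 listed) the sums were 688657 to 925854 and 577928 to 1133820, mostly counts of miR-143-3p (log2 fold change 0.11). The log2 fold changes of miR-199a-5p, miR-199b-5p and miR-214-3p were 0.47, 0.46 and 0.39, and that of miR-145-5p was -0.15. The sums of endothelial miRNA (2 of 2) were 117544 to 144955 in Control and 136542 to 197735 in FD libraries. Those of myeloid miRNA (2 of 4) were 168 to 423 and 346 to 925, and those of erythroid miRNA (3 of 5) 3750 to 6061 and 5961 to 8756. Log2 fold changes were 0.37 for miR-126-3p and 0.31 for miR-126-5p (endothelial), and 1.15 for miR-223-3p and 1.0 for miR-223-5p (myeloid). Among erythroid miRNA they were 0.46 for miR-451-5p, 0.33 for miR-144-3p and 0.30 for miR-144-5p. No listed marker was at 0 in any library. Their part in the miR-29 values was not tested.

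The 3p miRNA were the abundant members. miR-29a-3p ranked 37 among all miRNA by mean normalized count, miR-29c-3p 75 and miR-29b-3p 109. The 5p miRNA followed, with miR-29c-5p at 195, miR-29a-5p at 290 and miR-29b-5p at 399. The order was the same in both diets, and the lowest library of each member lay above the highest library of the next. Counts of the 3p miRNA made up 97.9 to 98.6% of the family's counts.

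miR-29a-3p, the leading member, had normalized counts of 12868 in L01, 17137 in L04, 15314 in L06 and 17944 in L10. In FD libraries it ranged from 16538 to 22330 with a median of 21363. The diets overlapped, although 4 of 6 FD libraries lay above every Control library. At least 4 FD libraries did so for 14.7% of the miRNA tested. The means were 15816 ± 2252 (SD, n = 4) and 20126 ± 2679 (SD, n = 6), and the log2 fold change of FD over Control was 0.33 with a standard error of 0.134 and a 95% interval of 0.04 to 0.62. It did not pass the threshold of 0.1 (edgeR's quasi-likelihood test, Benjamini-Hochberg adjusted p = 0.269, unadjusted p = 0.0290).

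miR-29b-3p had normalized counts of 939 in L01, 1288 in L04, 1314 in L06 and 1563 in L10, against 1094 to 2017 with a median of 1512 in FD libraries. Only 2 FD libraries lay above every Control library. Its log2 fold change was 0.27, with a standard error of 0.190 and a 95% interval of -0.14 to 0.69 (edgeR's quasi-likelihood test, Benjamini-Hochberg adjusted p = 0.457).

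miR-29c-3p, which has the same seed, had normalized counts of 3284 in L01, 4542 in L04, 4103 in L06 and 4632 in L10. In FD libraries it ranged from 3056 to 4815 with a median of 4236. The diets overlapped almost entirely, with 1 FD library above and 1 below all Control libraries. Its log2 fold change was -0.05 with a 95% interval of -0.37 to 0.27 (edgeR's quasi-likelihood test, Benjamini-Hochberg adjusted p = 0.876).

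**Figure D1:**
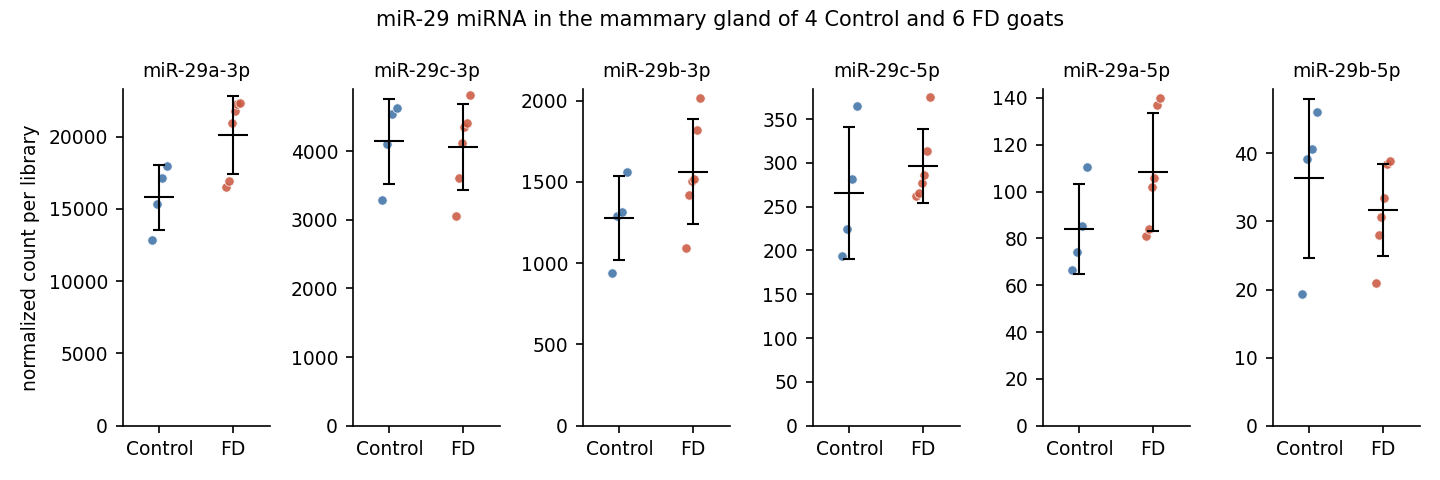
Normalized read count of each miR-29 miRNA (vertical axis, a scale for each panel) in 4 Control and 6 FD libraries; points are libraries, the long bar is the mean and the whiskers are 1 SD. Diets overlapped for every member, and miR-29a-3p had 4 FD libraries above all Control libraries.

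The 5p miRNA are the less abundant strands of the same hairpins. miR-29c-5p had normalized counts of 194 in L01, 282 in L04, 224 in L06 and 365 in L10, against 263 to 375 with a median of 282 in FD libraries. miR-29a-5p had 66.3, 85.4, 74.2 and 110 in the same Control libraries, and 81.1 to 140 with a median of 104 in FD libraries. The diets overlapped for both.
The log2 fold changes were 0.14 for miR-29c-5p (95% interval -0.28 to 0.55) and 0.35 for miR-29a-5p (-0.12 to 0.81), with Benjamini-Hochberg adjusted p of 0.710 and 0.437 by edgeR's quasi-likelihood test. miR-29b-5p, with only 14 to 48 counts a library, had normalized counts of 19.4 in L01, 39.2 in L04, 40.6 in L06 and 46.1 in L10, and 20.9 to 38.8 with a median of 32.1 in FD libraries. Every FD library lay within the Control range. Its log2 fold change was -0.24 (95% interval -0.82 to 0.35, adjusted p = 0.648 by the same test).

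In all, 0 of 6 miR-29 miRNA passed the adjusted threshold, as did 0% of the 490 miRNA tested, among which the smallest adjusted p was 0.152. At an unadjusted p under 0.05, 1 member (miR-29a-3p, higher) passed, beside 15.7% of all miRNA tested, 7.55% higher and 8.16% lower. The unadjusted p of miR-29a-3p was 0.107 without L01 or without L08, 0.0510 without L03 and 0.0540 without L06. The diets overlapped for 6 of 6 members, while 2.24% of all miRNA tested did not overlap. DESeq2 called 0 members and 27 miRNA in all (5.51%), and gave miR-29a-3p an adjusted p of 0.181. The median log2 fold change was 0.21 over the members and -0.0004 over all tested, and 4 of 6 members were above 0, against 50% of all tested.

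**Figure D2:**
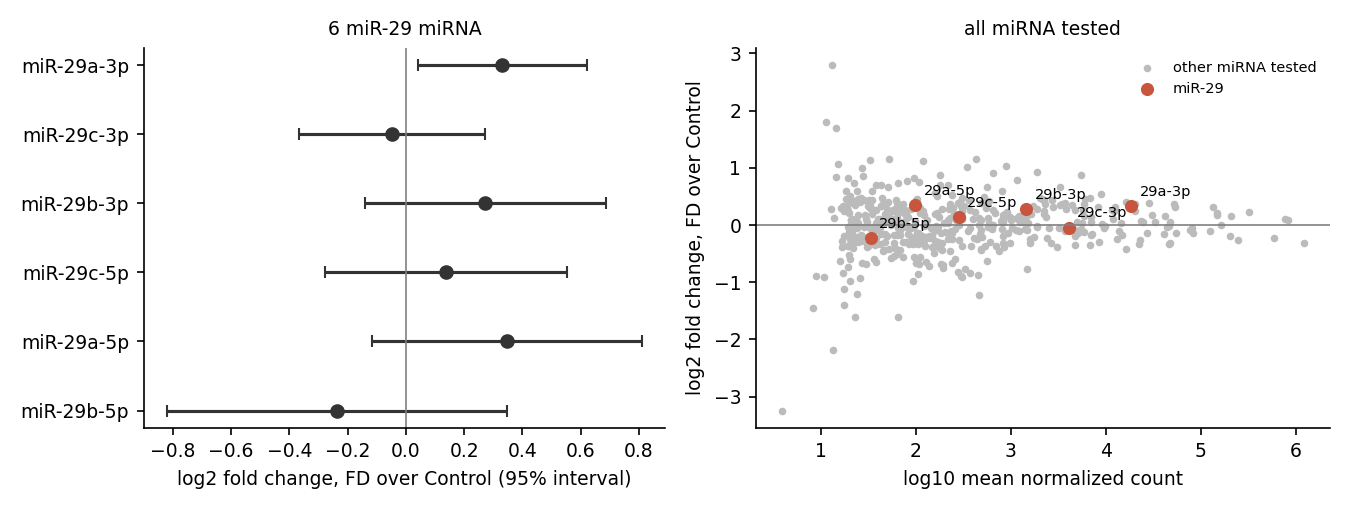
Left, log2 fold change of FD over Control for each miR-29 miRNA with its 95% interval. Right, log2 fold change against log10 mean normalized count for the 490 miRNA tested, with miR-29 in red; the members lie within the cloud of the others.

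The whole family took 0.328 ± 0.0379% (SD, n = 4) of the counts in Control libraries and 0.405 ± 0.0529% (SD, n = 6) in FD libraries. Control libraries held 0.274% in L01, 0.362% in L04, 0.335% in L06 and 0.342% in L10, and FD libraries 0.324 to 0.452% with a median of 0.429%. The diets overlapped, with 4 FD libraries above every Control library. The 95% Wilson interval extended at most 0.00543 percentage points to each side, which covers counting error only. This share is a description without a test. Its FD mean was 1.23 times its Control mean, or 1.17 times with the 10 most abundant miRNA left out of the total. It consisted mostly of miR-29a-3p, which took on average 74.5% of the 3p counts in Control and 78.1% in FD libraries.

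Food deprivation could also change the proportions of miRNA that share a seed, and a ratio within a library needs no size factor. The ratio of miR-29a-3p to miR-29c-3p was 3.92 in L01, 3.77 in L04, 3.73 in L06 and 3.87 in L10, and 4.10 to 6.85 with a median of 4.78 in FD libraries. The diets did not overlap: the 4 Control libraries were close together and all 6 FD libraries were above them. The difference of mean log2 ratios was 0.38, a 1.30-fold higher ratio (two-sided exact permutation test, p = 0.0143, Benjamini-Hochberg adjusted p = 0.524 over 220 same-seed pairs), so it did not pass the correction. An unadjusted p under 0.05 was reached by 6.36% of these pairs. With medians in place of means the difference was 0.32 (exact permutation p = 0.0571). Of all same-seed pairs, 1.82% did not overlap between diets, the others being let-7c-5p with let-7a-5p, let-7e-5p and let-7f-5p.
The highest ratio was that of L08, the library with the most counts and the lowest epithelial sum, and with any 1 library left out the difference was 0.287 to 0.435.

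In shares of the 3p counts, miR-29a-3p took 74.5 ± 0.594% in Control and 78.1 ± 2.25% in FD libraries (SD, n = 4 and 6), and miR-29c-3p took 19.5 ± 0.336% and 15.8 ± 2.18%. miR-29b-3p took 5.98 ± 0.50% and 6.03 ± 0.669%. The ratio of miR-29b-3p to miR-29c-3p was 0.307 ± 0.0265 and 0.388 ± 0.0744, with 5 of 6 FD libraries above every Control library (exact permutation p = 0.0619, adjusted p = 0.582). That of miR-29a-3p to miR-29b-3p was 12.5 ± 1.13 and 13.1 ± 1.58 (exact permutation p = 0.557, adjusted p = 0.908).
The 5p miRNA of the same precursors do not share a seed, and their ratio was added after the 3p values were seen. miR-29a-5p over miR-29c-5p was 0.322 ± 0.0210 in Control and 0.365 ± 0.0658 in FD libraries, and 3 of 6 FD libraries lay above every Control library (exact permutation p = 0.262).

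**Figure D3:**
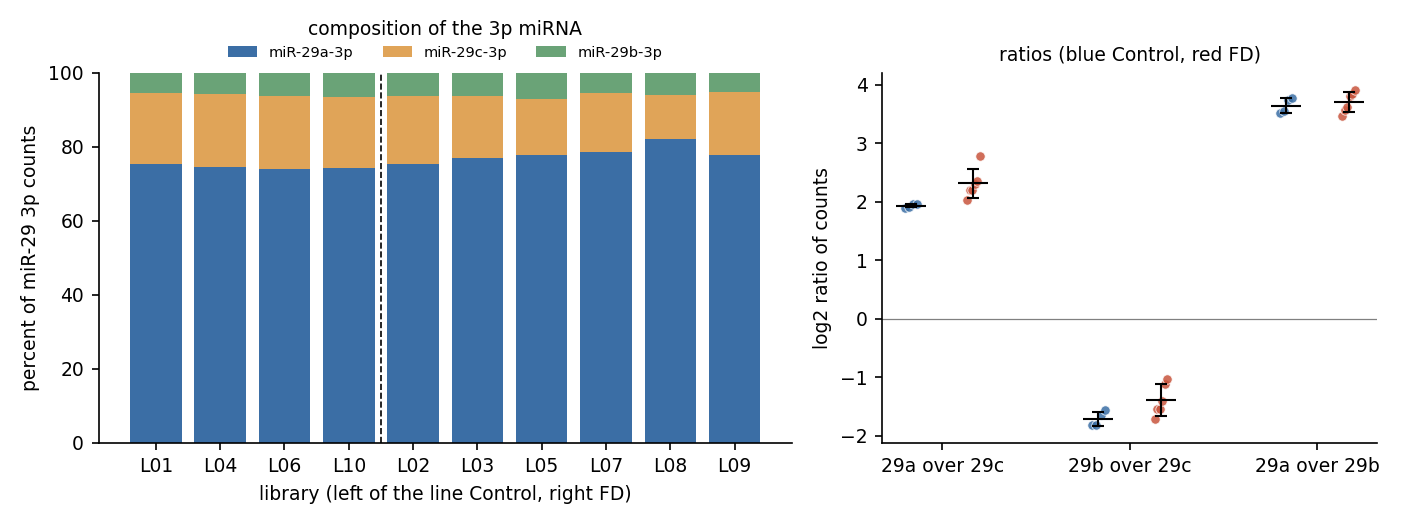
Left, percent of the miR-29 3p counts of each library taken by miR-29a-3p, miR-29c-3p and miR-29b-3p. Right, log2 ratios between the 3p miRNA, with points for libraries, bars for the mean and whiskers for 1 SD; the ratio of miR-29a-3p to miR-29c-3p does not overlap between the diets.

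The balance of the arms differed among the precursors. The 3p count was 189 ± 19.1 times the 5p count in Control and 189 ± 27.0 times in FD libraries for mir-29a (exact permutation p = 0.938, adjusted p = 0.955 over 113 precursors). For mir-29c the ratio was 15.99 ± 2.38 and 13.7 ± 2.03 (exact permutation p = 0.162, adjusted p = 0.646). For mir-29b it was 36.2 ± 7.16 and 50.04 ± 13.04 (exact permutation p = 0.0667, adjusted p = 0.632), on few counts of miR-29b-5p. Its unadjusted p was 0.0357 without L01, where the difference of mean log2 ratios was 0.579, and 0.0476 without L02 or L09, and the adjusted p stayed above 0.1 without any 1 library. In other mammals miR-29b is made from more than 1 locus, with the same 3p miRNA. Only 1 mir-29b precursor was listed here, and whether the counts of miR-29b-3p or miR-29b-5p include another hairpin was not tested. The diets overlapped for all 3 precursors, and 0.885% of the 113 ratios did not overlap. At an unadjusted p under 0.05, 0 of the 3 passed, beside 7.08% of the 113.

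**Figure D4:**
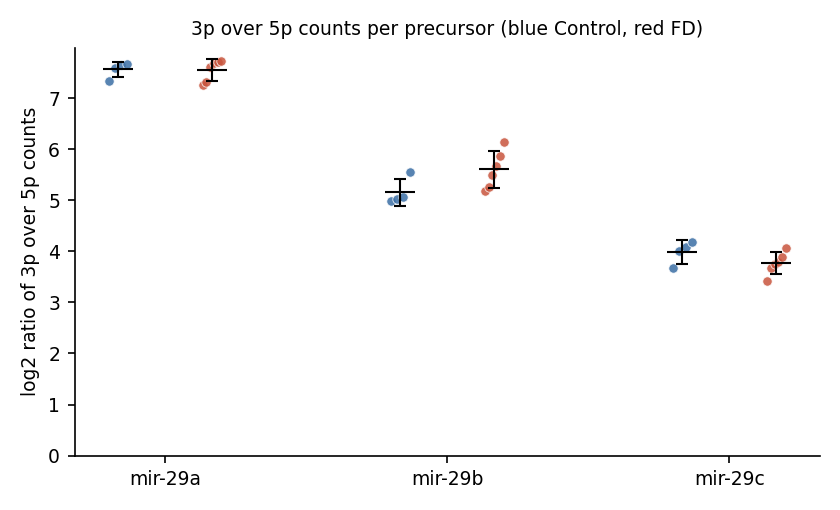
Log2 ratio of 3p to 5p counts for each miR-29 precursor in Control (blue) and FD (red) libraries; points are libraries, bars the mean and whiskers 1 SD. mir-29a was the most 3p-biased and mir-29c the least in both diets.

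Among the 10 goats, the members varied together to different degrees. miR-29a-3p and miR-29b-3p correlated at r = 0.883 (permutation p = 0.0004, adjusted p = 0.006 over 15 pairs) and rho = 0.903 (permutation p = 0.00094), and at r = 0.750 without L01 and L05, the farthest from the median. The arms of mir-29a correlated at r = 0.869 (permutation p = 0.00135, adjusted p = 0.0101) and rho = 0.855 (permutation p = 0.00281), and at r = 0.870 without the same libraries. miR-29a-3p and miR-29c-3p, which share the seed, correlated at r = 0.382 (permutation p = 0.277, adjusted p = 0.346).
Of the 15 pairs, 14 were positive and 7 had an adjusted p under 0.05, or 4 in deviations from the diet means. The median r was 0.591. Over the 119805 pairs of all miRNA tested, the median r was -0.002, 49.8% were positive, and 5.77% had an r at least as large in size as 0.729, that of the weakest of the 7. All these pairs share libraries and size factors. Without L01, 0 of 15 pairs passed, and without L08 11 did and miR-29a-3p with miR-29c-3p reached r = 0.765.

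**Figure D5:**
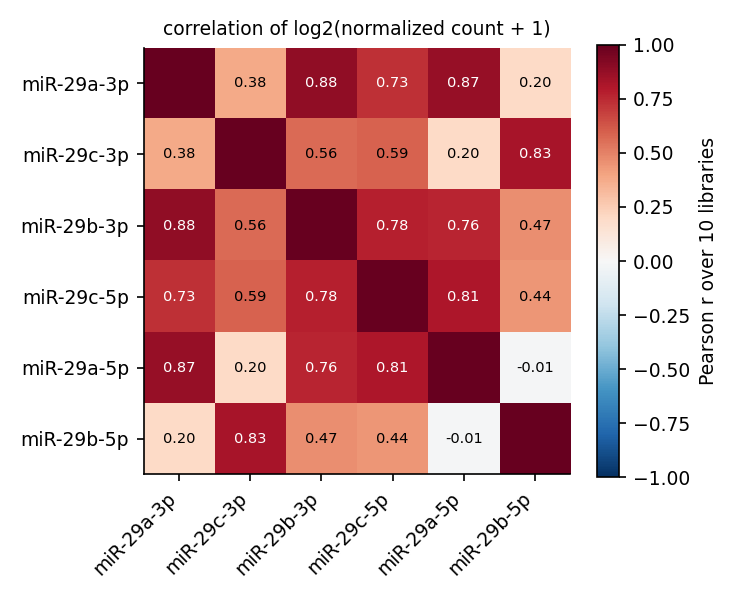
Pearson r of log2(normalized count + 1) between the miR-29 miRNA over the 10 libraries, printed in each cell. miR-29a-3p with miR-29b-3p had the highest r of the 15 pairs.

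Outside the family, the named miRNA most like miR-29a-3p over the 10 libraries were miR-16a-5p (r = 0.898), miR-99a-3p (r = 0.891) and miR-16b-5p (r = 0.889), with 2 predicted miRNA of r = 0.907 and 0.887 among the 5 highest of 484 compared. For miR-29b-3p the first was miR-20b (r = 0.885), and for miR-29c-3p it was miR-499-5p (r = 0.776, rho = 0.418). These are descriptions, and the libraries and their size factors are shared.

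Goats of a diet differed in the 3p miRNA about as much as in other miRNA of like abundance. The coefficient of variation of miR-29a-3p was 14.2% in Control and 13.3% in FD libraries, beside medians of 13.6 and 14.04% over its 50 neighbours in abundance. That of miR-29c-3p was 14.9 and 15.5%, beside 14.9 and 17.8%. For miR-29b-3p it was 20.1 and 20.6%, beside 17.9 and 20.3%.

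Other miRNA known to act on the same classes of target gave a background for the family. Of 11 miRNA known to act on DNA methyltransferase mRNA, 7 were tested and 0 passed the adjusted threshold, with 1 higher at an unadjusted p under 0.05 (miR-126-3p, log2 fold change 0.37) and a median of 0.11. The most abundant, miR-148a-3p, had a log2 fold change of -0.31 (edgeR's quasi-likelihood test, Benjamini-Hochberg adjusted p = 0.440), and the next were miR-143-3p (0.11) and miR-101-3p (0.18). Of 18 miRNA known from fibrosis and matrix regulation, 17 were tested and 0 passed, with miR-34a-5p higher (0.69) and miR-200b-3p lower (-0.34) at an unadjusted p under 0.05 and a median of 0.05. The most abundant, miR-26a-5p and miR-21-5p, had log2 fold changes of 0.23 and 0.18. Of all 490 miRNA tested, 15.7% had an unadjusted p under 0.05 by edgeR's quasi-likelihood test, 7.55% higher and 8.16% lower.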

How the data were processed

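Small RNA of 10 mammary glands was sequenced. The authors trimmed adapters with Cutadapt, kept reads of 17 to 28 nt, and counted them per mature miRNA with miRDeep2 on the goat genome CHIR_1.0 and miRBase. CASAVA 1.8.2 is named in the submitters' processing notes. The deposited values were raw counts and, for predicted precursors, a miRDeep2 score of how likely a precursor is real, computed by the authors, and no molecular identifiers were described.

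Counts were divided by median-of-ratios size factors for display and for the filter (highest normalized count above 28, the value that the study took from HTSFilter). The study does not say whether the counts that it held against this filter value were normalized, and its set of miRNA was not the same size. Here 490 miRNA passed, or 504 on raw counts. Diets were compared by edgeR 4.0.16 quasi-likelihood tests with TMM on counts, Benjamini-Hochberg over 490 miRNA, threshold 0.1. DESeq2 1.42.0 and limma 3.58.1 were alternatives, with other filters, scalings and libraries left out. The name miR-133b was listed for 2 entries with the same counts, which were left out of the arm ratios. Ratios used a pseudocount of 0.5 and exact permutation over 210 splits. Correlations over all 10 libraries used 100000 resamples. Those in deviations from diet means used all 17280 permutations within diets, and those with a library left out used all permutations. The edgeR fit and the permutation test were tested on simulated data with known differences. R 4.3.3 and Python 3.11.15 were used. The members, named miRNA and lists were chosen with earlier results of these data known: all members, the miRNA most like the 3p members, and the most abundant of each list.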

Additional observations from a re-analysis of the deposited data

Results flagged for a closer look

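Of 28 groups of libraries examined, 1 held a library far from the others. The log2 ratio of miR-29b-3p to miR-29b-5p in Control was 5.55 in L01 and 4.99 to 5.07 in the other Control libraries (Dixon ratio 0.861, critical value 0.829). The L01 value rests on 14 counts of miR-29b-5p. Chance alone flags some groups at this 95% level.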

How the results depend on the processing

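No paired analysis was possible because the Control and FD libraries came from different goats. The number of miRNA called was 0 with edgeR, 27 with DESeq2 with or without its Cook's distance step, 5 without the filter, and 0 to 1 with any library left out (1 without L02). The difference in the log2 arm ratio of mir-29a, near 0, changed sign with medians (0.0411) and ranged from -0.0815 to 0.0521 with a library left out, above 0 without L01 (0.000652), L03 (0.0416), L04 (0.0195), L06 (0.0308) or L08 (0.0521). Of the 15 correlations, 4 passed in deviations from diet means and 0 to 11 with a library left out (0 without L01, 3 without L03, 11 without L08). Without L01 the adjusted p of miR-29a-3p with miR-29b-3p and with miR-29a-5p was 0.0763. The log2 fold change of miR-29a-3p ranged from 0.24 (without L01) to 0.37 (without L09), that of miR-29b-3p from 0.14 to 0.34, that of miR-29c-3p from -0.15 to -0.02, that of miR-29a-5p from 0.20 to 0.46, that of miR-29c-5p from 0.006 to 0.28 and that of miR-29b-5p from -0.44 to -0.15. The causes were not tested. With few counts, miR-29b-5p limits its own fold change and the mir-29b arm ratio.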

Other observations

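Of the precursors predicted from these reads, 2 had a seed matched by the prediction software to hsa-miR-29b-1-5p, with 4 and 3 counts summed over all libraries. Neither passed the filter. Both matched miR-29b-5p as listed here only with a shift of 1 base. Another predicted miRNA, chr23_31037_st, carried the seed of miR-29b-5p itself, with 15 counts over all libraries.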
